A study of Homo sapiens with 9 samples.

Results

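HOX genes encode homeodomain transcription factors and lie in the human genome in 4 clusters, HOXA, HOXB, HOXC and HOXD. The accessible sites of these clusters were read from ATAC-seq peak lists of K562 cells, a human line established from a chronic myeloid leukaemia in blast crisis. The members were 38 HOX genes of 20090 protein-coding genes analysed, 10 each in HOXA and HOXB and 9 each in HOXC and HOXD. A peak was assigned to a cluster when its centre lay in a member gene or within 10 kb of one. By this rule the clusters held 564 of the 2164004 peaks in all lists on chromosomes 1 to 22 and X. They held 177 of the 450000 peaks that remained when each library was reduced to its 50000 peaks with the highest −log10 p, called strong peaks below. Equal −log10 p values were ordered by fold enrichment, then by chromosome name and position. The joined strong peaks of all 9 libraries made 38 regions in the clusters of 105878 regions in all.

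The study profiled 3 genotypes with 3 libraries each. Wild type libraries came from parental K562 cells without a STAG2 mutation. Heterozygous and homozygous libraries each came from 1 edited K562 line with the STAG2 R614* mutation, a stop codon in a subunit of the cohesin complex that shapes chromatin loops. The homozygous cells grew attached and were detached with trypsin-EDTA, at 0.005%, for subculture, so genotype, clone and growth form cannot be told apart. No label says whether the libraries of a genotype came from separate cultures, and the p-values below measure only the spread between these libraries, which may be technical.

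HOX proteins set position along the body axis of the embryo, and the genes of a cluster are switched on in the order in which they stand on the chromosome. In blood, HOXA and HOXB genes are active in stem and progenitor cells and fall silent as cells mature, and their activity is held up by the KMT2A complex and held down by Polycomb complexes. CTCF, bound at defined sites inside the clusters, and cohesin mark borders between active and silent stretches. HOX proteins bind DNA together with the cofactors PBX and MEIS. ATAC-seq marks open DNA, which a transposase can cut, and a peak shows an open site and not the activity of a gene.

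Some lists were not independent of each other. Wild type replicate 3 and heterozygous replicate 1 shared 46.0% of the intervals of the shorter list with identical ends, and 26 of 57 HOX intervals (45.6%). Wild type replicates 1 and 2 shared 23.2%, and 11 of 49 HOX intervals (22.4%). Heterozygous replicates 2 and 3 shared 1.17% and no HOX interval, and each of the other 33 pairs shared between 0.223% and 0.351% and at most 1 HOX interval. Values are given library by library so that these lists can be followed. The counts of regions that differ, the gene tests and the cluster totals are also given without wild type replicate 3 and heterozygous replicate 1, or with each sharing pair as 1 source. The lists held between 181579 and 319986 peaks, and read depth is unknown because the lists hold no read counts. Every list ended near a −log10 p of 2, so that a site without a peak is only below that limit. On chromosome 17, which carries HOXB, lay between 2.69% and 2.71% of the strong peaks of the homozygous libraries and between 2.06% and 2.198% of those of the other 6. Of 10 erythroid marker genes of K562 cells, 5 had a strong peak within 1 kb of the gene start in all 9 libraries and 2, GATA1 and KLF1, in none, while of 10 marker genes of other cell types 0 had one in all 9 and 8 had one in none.

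Sequences of 4 HOX regions follow, chosen because 2 had a strong peak in every library and the other 2 differed between genotypes. Each is a window of 200 bases around the middle of the region, on the plus strand of GRCh37, with CpG dinucleotides in capitals. The first 2 were strong in all 9 libraries, the third was strong only in homozygous libraries, and the fourth was strong in all heterozygous and no homozygous libraries.
HOXB, below HOXB1, chr17:46599616-46599815: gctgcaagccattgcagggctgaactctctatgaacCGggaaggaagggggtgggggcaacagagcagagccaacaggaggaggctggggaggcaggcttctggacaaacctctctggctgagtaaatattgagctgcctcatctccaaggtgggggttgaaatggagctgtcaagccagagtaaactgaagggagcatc
HOXD3 intron, chr2:177005507-177005706: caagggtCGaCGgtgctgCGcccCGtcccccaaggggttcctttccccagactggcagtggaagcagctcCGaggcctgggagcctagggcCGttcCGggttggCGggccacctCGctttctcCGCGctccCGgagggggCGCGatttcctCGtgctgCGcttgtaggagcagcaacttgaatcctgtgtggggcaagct
HOXC, between HOXC13 and HOXC12, chr12:54343320-54343519: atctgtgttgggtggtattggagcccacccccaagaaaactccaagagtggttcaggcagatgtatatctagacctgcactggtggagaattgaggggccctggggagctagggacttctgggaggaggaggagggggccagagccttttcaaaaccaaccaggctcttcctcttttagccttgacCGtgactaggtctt
HOXA, beside the HOXA6 start, chr7:27190642-27190841: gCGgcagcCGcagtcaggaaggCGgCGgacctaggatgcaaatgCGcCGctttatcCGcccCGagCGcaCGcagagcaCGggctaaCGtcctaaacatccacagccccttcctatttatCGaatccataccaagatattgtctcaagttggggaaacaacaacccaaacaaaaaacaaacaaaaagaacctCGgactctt
The constitutive window in HOXD3 held 16 CpGs and the window near HOXA6 held 14. The constitutive window beside HOXB1 and the homozygous window of HOXC held 1 CpG each, so that a strong peak in every library was found in a CpG-rich and in a CpG-poor sequence.

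On average over the libraries all 4 clusters carried more strong peaks per length than the genome, and most of their length held none. The mean density of strong peaks was 3.25 per 100 kb in HOXA, 3.06 in HOXB, 3.56 in HOXC and 5.36 in HOXD, against 1.65 per 100 kb over chromosomes 1 to 22 and X. Of the peaks listed in the clusters, 31.4% were among the strong ones, against 20.8% of all peaks. The 100 kb on either side held fewer strong peaks: means of 0.889 before and 0.556 after HOXA, 1.56 and 2.22 around HOXB, 0.111 and 1.78 around HOXC, and 2.56 and 3.11 around HOXD, in the order of the chromosome. Strong peaks of all libraries together left 94.8% of HOXA, 95.1% of HOXB, 93.7% of HOXC and 92.3% of HOXD uncovered. Peaks of any strength left 84.9%, 81.7% and 84.0% of HOXA, HOXB and HOXC uncovered, but 66.3% of HOXD.

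**Figure D1:**
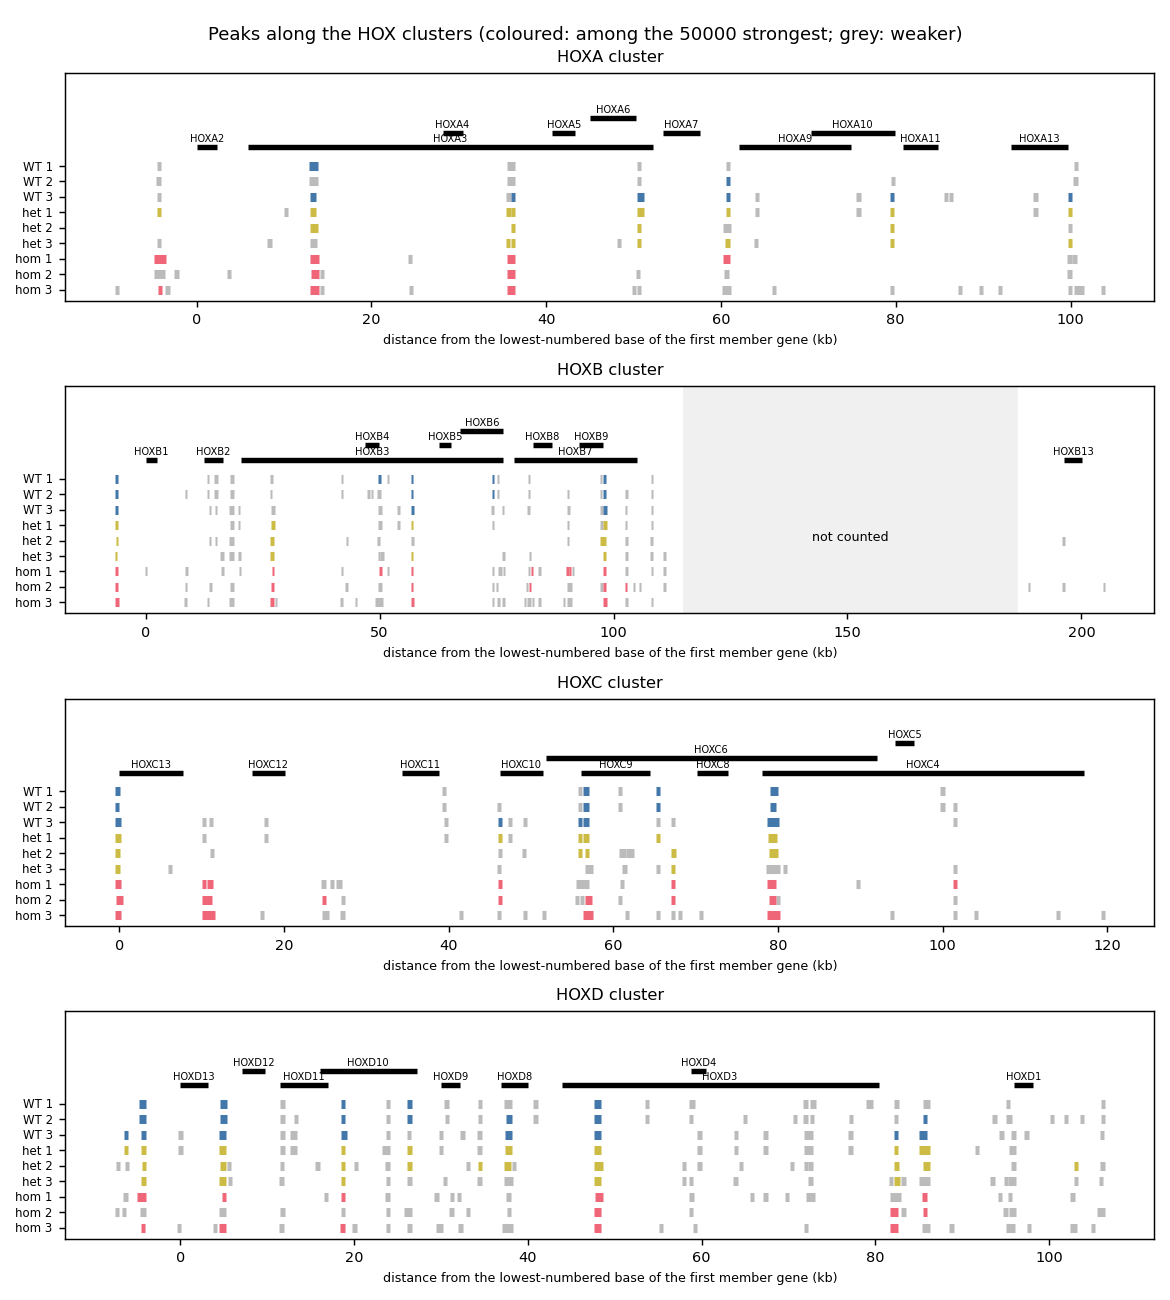
Peaks along the HOXA, HOXB, HOXC and HOXD clusters in each library, with member genes as black bars above; the x axis is the distance in kb from the lowest-numbered base of the first member gene, coloured marks are strong peaks (blue wild type, yellow heterozygous, red homozygous) and grey marks are weaker peaks. A few columns are coloured in nearly every library, with wide uncoloured stretches between them, and the shaded stretch between HOXB9 and HOXB13 is outside the cluster and was not counted.

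The longest stretch without a strong peak in any library lay in HOXD, chr2:177006133-177039113, spanned 33.0 kb and held all of HOXD4. In HOXB, chr17:46600104-46632516 spanned 32.4 kb and held HOXB1 and HOXB2, the 2 genes of the cluster that act furthest to the front of the embryo. The HOXC stretch, chr12:54434355-54459814, spanned 25.5 kb over the 3′ end of HOXC4. In HOXA, chr7:27153988-27175382 spanned 21.4 kb and held HOXA4. When weaker peaks were counted too, the longest empty stretches were 11.6 kb in HOXA with all of HOXA5, 16.7 kb in HOXB with all of HOXB5, 11.8 kb in HOXC with all of HOXC11, and 6.49 kb in HOXD around the HOXD3 start.

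Few of the 38 regions were strong in every library. There were 4 such regions (10.5%), against 18.2% of all regions of the genome, and 7 (18.4%) were strong in 1 library, against 30.3%. Most HOX regions, 27 of 38, were strong in 2 to 8 libraries. In the lists of all peaks the order was the other way: 20 of 140 joined HOX regions (14.3%) were present in all 9 libraries, against 7.15% of 738271 regions. The 4 constitutive regions lay in HOXB, HOXC and HOXD, and HOXA held 7 regions of which 0 were strong in all 9. With the 20000 strongest peaks, 66.7% of libraries held the regions beside HOXB1 and at the HOXB9 start. The regions at HOXC13 and in HOXD3 were then held by 88.9%. With peaks of a −log10 q of at least 5 the HOXC13 region stayed in 100% of libraries, and the other regions fell to 88.9%.

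**Figure D2:**
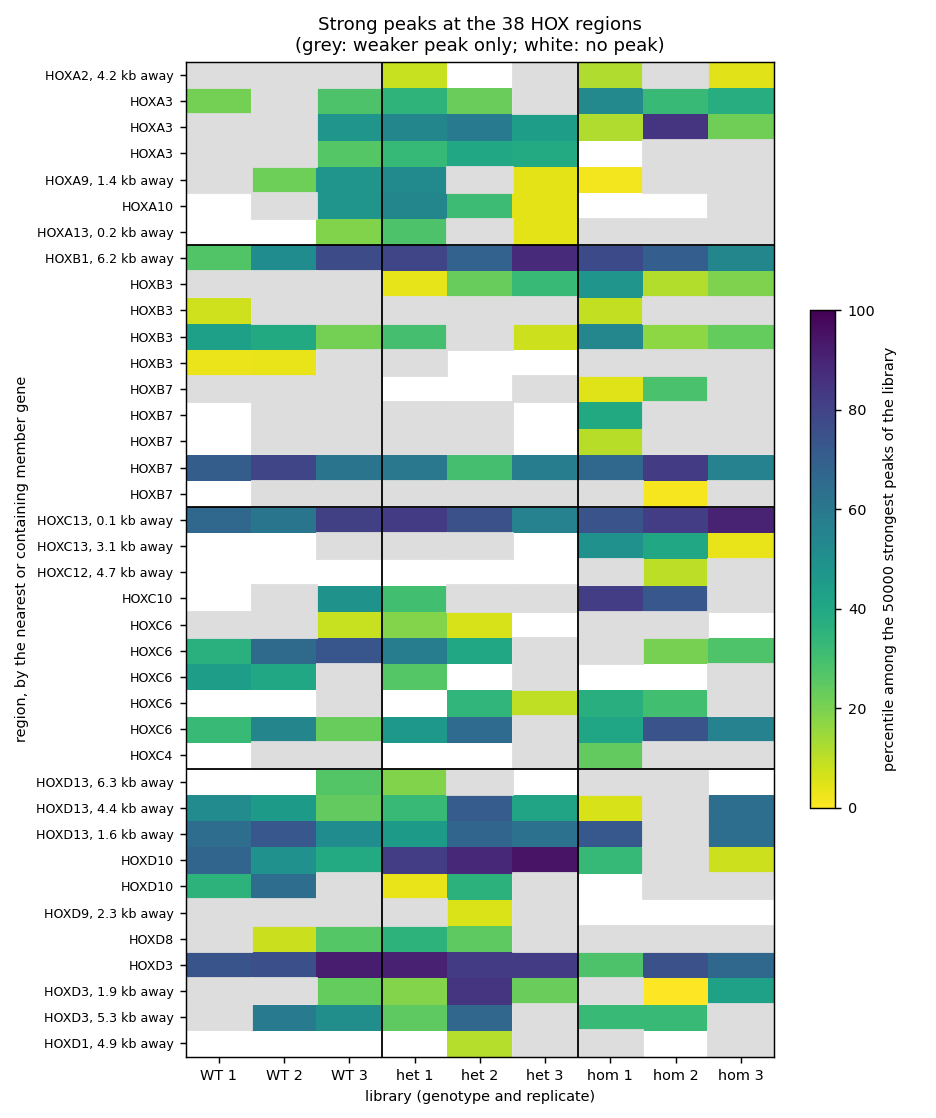
Each of the 38 HOX regions (rows, in chromosome order within HOXA, HOXB, HOXC and HOXD, named by the member gene that contains it or lies nearest) in each library (columns); colour is the percentile of its strongest peak among the 50000 strong peaks of that library, grey is a weaker peak only and white is no listed peak. Filled rows without a gap are the 4 regions strong in all 9 libraries, beside HOXB1, at the HOXB9 start (inside HOXB7), at HOXC13 and in HOXD3, and homozygous replicate 2 is grey in 3 neighbouring HOXD rows that are coloured in the other 8 libraries.

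Strength is given as a percentile among the strong peaks of the same library, by the authors' −log10 p, with 100 for the strongest peak of the library. The region at the start of HOXC13, a gene of hair and nail formation at the 5′ end of its cluster, was at chr12:54332066-54333011, with its middle 76 bp from the gene. Its percentile was 66.0, 61.1 and 80.9 in wild type, 82.1, 75.3 and 55.7 in heterozygous and 74.3, 81.9 and 90.0 in homozygous libraries. The 3 genotypes overlapped, and the lowest value belonged to heterozygous replicate 3. At the start of HOXB9, a posterior gene of its cluster, the region chr17:46703069-46704407 reached 70.4, 79.1 and 61.6 in wild type, 60.2, 29.6 and 58.0 in heterozygous and 66.2, 82.1 and 55.7 in homozygous libraries. Here too the genotypes overlapped, with heterozygous replicate 2 lowest; the annotation also places this region in an intron of a long HOXB7 transcript.

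The constitutive region beside HOXB1, whose sequence was given above, lay between genes at chr17:46599328-46600103, 6172 bp from HOXB1. It reached 27.0, 51.4 and 76.6 in wild type, 79.0, 68.6 and 87.6 in heterozygous and 77.6, 70.02 and 54.2 in homozygous libraries. Wild type values spread widest and overlapped both mutant genotypes. HOXB1 and HOXB2, on its inner side, had no strong peak at their starts in any library. The intron of HOXD3 held the fourth region, chr2:177005082-177006132, at 73.9, 75.4 and 92.5 in wild type, 90.8, 82.8 and 82.8 in heterozygous and 27.9, 75.0 and 66.3 in homozygous libraries. It was among the strongest HOX sites in wild type and heterozygous cells, and homozygous replicates 1 and 3 were lower than all 6 libraries of these genotypes, while homozygous replicate 2 lay between 2 wild type libraries.

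In HOXA the wild type libraries differed among themselves more than the genotypes did. HOXA held 1, 1 and 6 strong peaks in wild type, 8, 4 and 6 in heterozygous and 4, 2 and 3 in homozygous libraries. The high wild type value was that of replicate 3, the list that shares intervals with heterozygous replicate 1, which had the most. With all peaks counted HOXA held 6, 7 and 13 in wild type, 12, 6 and 11 in heterozygous and 7, 9 and 18 in homozygous libraries, and all 3 genotypes overlapped. The most widely shared HOXA regions lay at an internal HOXA3 start, chr7:27152870-27153987, and in a HOXA3 intron, chr7:27175383-27176460, and each was strong in 7 libraries. The intron site was strong in all 3 heterozygous and all 3 homozygous libraries but in wild type replicate 3 alone, with percentiles of 54.0, 58.9 and 44.4, of 12.1, 84.9 and 21.7, and of 47.8. At the HOXA13 end, chr7:27239665-27240166, 206 bp from the start of this gene of limb and urogenital development, a strong peak was found in 3 libraries: wild type replicate 3 and heterozygous replicates 1 and 3.

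HOXB held 5, 4 and 3 strong peaks in wild type, 4, 3 and 4 in heterozygous and 8, 6 and 4 in homozygous libraries. With all peaks counted it held 15, 19 and 17, then 13, 13 and 14, then 23, 22 and 22, and all 3 homozygous libraries stood above the other 6. Of 28378 windows of 100 kb across the genome 5.93% showed the same separation of homozygous libraries, and of 780 windows on chromosome 17 18.5% did; the HOXB intervals span 149 kb. Per 1000 peaks of chromosome 17 in the same list, HOXB held 5.36, 5.21 and 4.54 in wild type, 4.03, 4.94 and 5.48 in heterozygous and 6.43, 5.41 and 3.22 in homozygous libraries. On that scale the genotypes overlapped and the homozygous libraries held both the highest and the lowest value. When each library contributed the same number of strong peaks per chromosome, the homozygous mean of strong HOXB peaks changed from 50% above to 7.69% below the wild type mean.

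Among the single HOXB regions, a site inside HOXB3, chr17:46662585-46663148, was strong in 8 libraries, all but heterozygous replicate 2. The site at the HOXB4 start, chr17:46655527-46656334, 219 bp from the start of a gene known for expanding blood stem cells, was listed in all 9 libraries but strong in 2, wild type replicate 1 and homozygous replicate 1. In the HOXB7 part of the cluster 4 regions were strong in homozygous libraries only: 1 in homozygous replicates 1 and 2, at percentiles of 4.88 and 28.7, and 3 in a single homozygous library, at 39.2, 10.8 and 1.31. None met the rule of 3 libraries against 0. All 4 had weaker peaks in both other genotypes, and 7, 7, 7 and 8 of the 9 libraries had a peak of any strength there. Of all regions of the genome 30.3% were strong in 1 library. The share strong in homozygous libraries alone was not counted, so the 4 regions are a description. As given above, chromosome 17 held a higher share of the homozygous strong peaks, and its part here was not tested. HOXB13, a prostate and colon gene that lies apart from the rest, had no strong peak within 10 kb in any library.

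HOXC held 4, 4 and 5 strong peaks in wild type, 6, 5 and 2 in heterozygous and 7, 7 and 4 in homozygous libraries. With all peaks the values were 8, 10 and 14, then 10, 10 and 10, then 13, 13 and 21, and the homozygous range overlapped that of wild type. Beside the HOXC13 start, the widest site, of 1668 bp, was chr12:54411244-54412911 near the HOXC4 start, inside HOXC6, which was strong in 8 libraries at percentiles between 23.1 and 74.5. In heterozygous replicate 3 its rank was 50486, just outside the strong set. The HOXC9 site, chr12:54388917-54390119, was strong in 7 libraries with a peak in all 9. At the HOXC10 start, chr12:54378594-54379126, the 4 strong values were 49.0 in wild type replicate 3, 30.2 in heterozygous replicate 1, and 81.8 and 72.7 in homozygous replicates 1 and 2.

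In wild type and heterozygous cells HOXD was on average the cluster with the most peaks. In homozygous cells the mean was higher in HOXB than in HOXD, with 22.3 against 21 peaks of any strength and 6 against 4.33 strong peaks. Homozygous replicate 3 went the other way, with 22 against 23 and 4 against 5. With an equal number of peaks per chromosome the homozygous means of strong peaks were 4 in HOXB and 4.67 in HOXD. The counts are not scaled by length, which is 149 kb for HOXB and 118 kb for HOXD. HOXD held 5, 7 and 8 strong peaks in wild type, 9, 10 and 5 in heterozygous and 5, 3 and 5 in homozygous libraries, and 20, 27 and 25, then 22, 27 and 24, then 21, 19 and 23 peaks of any strength. The genotypes overlapped on both scales. Beside HOXD13, a limb gene at the 5′ end, 2 regions were strong in 8 libraries each, as was 1 in HOXD10, and the missing library was homozygous replicate 2 every time. In that library the 3 regions had weaker peaks at ranks 72638, 88923 and 82835, while its HOXD3 intron stood at rank 12497. The wild type and heterozygous percentiles of the region nearest HOXD13, chr2:176961857-176962782, ran from 45.3 to 72.8, and homozygous replicates 1 and 3 were at 72.3 and 64.0. HOXD4, which acts in the hindbrain and neck, had a peak within 1 kb of its start in all 9 libraries but no strong peak within 10 kb in any.

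**Figure D3:**
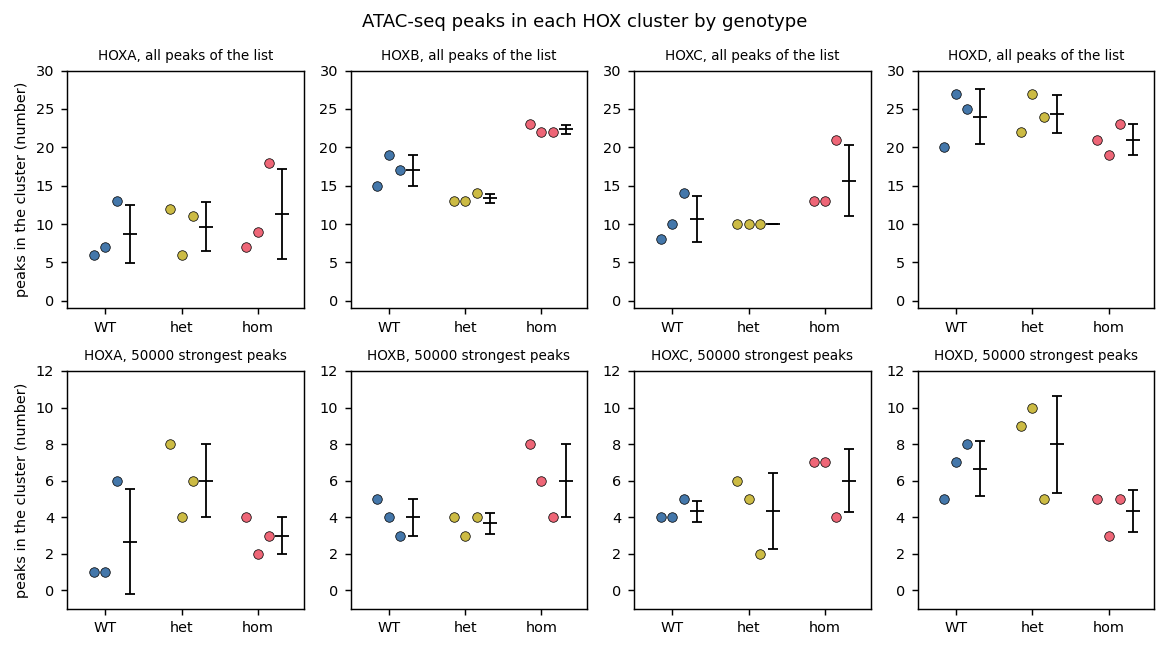
Number of peaks in each HOX cluster (y axis) by genotype (WT wild type, het heterozygous, hom homozygous), for all listed peaks (upper row) and the 50000 strongest of each library (lower row); points are the 3 libraries in replicate order from left to right and the bar beside them is the mean with its SD. The homozygous points stand apart from all others for all HOXB peaks (22 to 23 against 13 to 19), and overlap at least 1 other genotype in the other panels.

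Over all 4 clusters the number of strong peaks was 17.7 ± 3.79 (SD, n = 3) in wild type, 22 ± 5 (SD, n = 3) in heterozygous and 19.3 ± 4.16 (SD, n = 3) in homozygous cells. The ranges of the 3 genotypes overlapped: 15 to 22, 17 to 27 and 16 to 24. Without the lists that share intervals across genotypes the means were 15.5 in wild type (SD 0.707, n = 2) and 19.5 in heterozygous cells (SD 3.54, n = 2). The 2 wild type values, 15 and 16, then lay below the 2 heterozygous values, 17 and 22, and the homozygous values overlapped both. The homozygous mean of strong peaks was 12.5% above wild type in HOXA, 50% above in HOXB, 38.5% above in HOXC and 35% below in HOXD. Without wild type replicate 3 and heterozygous replicate 1 the differences were 33.3% in HOXB, 50% in HOXC and −27.8% in HOXD. Without wild type replicate 3 the HOXA difference was 200%, since the 2 remaining libraries held 1 strong peak each. Without wild type replicate 1 or 2, or without homozygous replicate 1, its sign turned, with values of −14.3%, −14.3% and −6.25%.

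Strong peaks at HOX gene starts were few. Of 38 members 2 (5.26%), HOXB9 and HOXC13, had a strong peak within 1 kb of the gene start in all 9 libraries, against 41.1% of 20090 protein-coding genes. No library gave a strong peak at 28 HOX starts (73.7%), against 35.5% of all starts, and no peak of any strength was found at 12 HOX starts (31.6%), against 15.4%. The 12 were HOXA2, HOXA3, HOXA4, HOXA5, HOXA7, HOXB1, HOXB5, HOXB8, HOXB13, HOXC11, HOXD3 and HOXD12. Between these extremes, HOXC4 was strong at its start in 8 libraries, HOXC9 in 7, HOXA6, HOXA10, HOXC10 and HOXD8 in 4 each, HOXA13 in 3 and HOXB4 in 2. By genotype, HOXA6 and HOXA10 were strong in 3 heterozygous, 1 wild type and 0 homozygous libraries, and HOXD8 in 2, 2 and 0. With the start of any coding transcript counted, a choice made after the data were seen, the members strong in all 9 were again 2 (5.26%, against 46.5% of 19748 genes), and 25 (65.8%, against 29.1%) were strong in none. HOXA3, HOXB3, HOXB7 and HOXC6 then gained a start that was strong in some libraries, and HOXA6 lost its own. Members without a peak of any strength at such a start were then 9 (23.7%, against 10.7%). Of the 12 named above, HOXA3, HOXD3 and HOXB8 had a peak at a coding start in 9, 8 and 2 libraries.

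**Figure D4:**
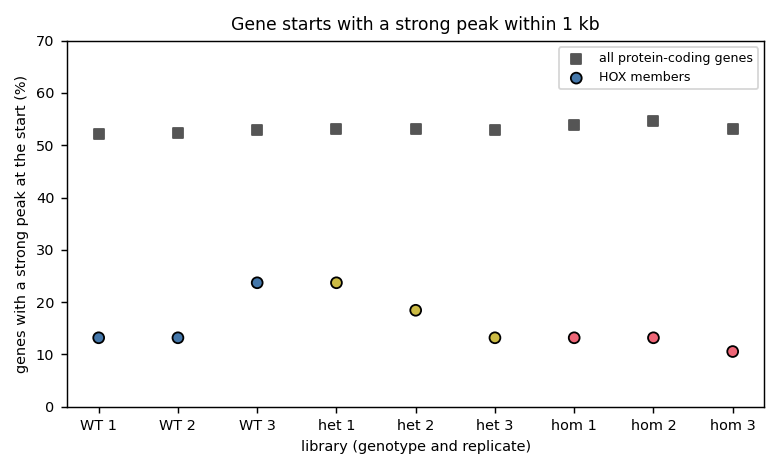
Percent of genes with a strong peak within 1 kb of the gene start (y axis) in each library (x axis), for the 38 HOX members (circles, coloured by genotype) and for all protein-coding genes (grey squares). HOX members range from 10.5% in homozygous replicate 3 to 23.7% in wild type replicate 3 and heterozygous replicate 1, below the 52.2% to 54.7% of all genes in every library.

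The number of HOX starts with a strong peak was 5, 5 and 9 in wild type, 9, 7 and 5 in heterozygous and 5, 5 and 4 in homozygous libraries. The 2 highest values belonged to the pair of lists that share intervals. Counting the gene body and 10 kb on both sides, HOXB2, HOXB13 and HOXD4 were the members without a strong peak in any library. Neighbouring members share peaks in this count, because their windows overlap and the annotation gives HOXA3, HOXB3, HOXB7, HOXC6 and HOXD3 long transcripts that run across other members.

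HOX regions were rich in G, C and CpG. In the 500 bases around their middle the median GC content was 59.5% and the median number of CpGs 29.5, against 47.4% and 6 over all regions, and their median width was 791.5 bp against 553. Matches to 5 motifs were sought on both strands of these 500 bases: the CTCF core consensus, TGANTCA of AP-1, AGATAA of GATA factors, TGTGGT of RUNX factors, and TGATTNAT of PBX with HOX. Matches to AP-1 were in 2 HOX regions (5.26%, against 22.9% of all regions), to GATA in 5 (13.2% against 29.9%) and to RUNX in 2 (5.26% against 32.3%). CTCF matches were in 4 (10.5% against 6.89%) and PBX with HOX matches in 4 (10.5% against 7.12%). All of these are matches of letters in windows that differ in GC content between the sets, and no test was made.

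The clusters held 15 matches to the CTCF consensus, of which 4 (26.7%) lay in a strong peak of at least 1 library, against 30.5% of 28152 matches in the genome. In a peak of any strength lay 8 (53.3% against 54.9%), and 0 lay in a region strong in all 9 libraries (7.29% in the genome). The 4 are shown because CTCF sites mark borders in these clusters; each is 30 bases of the minus strand of GRCh37, with the match in capitals.
HOXD13 to HOXD12, chr2:176962478-176962507: gcccaatgcCCAGGAGATGGCgagcgcgct
HOXA7 to HOXA9, chr7:27200748-27200777: aaacggcggCCAGCAGATGGCagtgtggct
HOXA10 UTR, chr7:27219516-27219545: gcgcagccgCCACGAGATGGCgcacttccg
HOXB7 intron, chr17:46696099-46696128: gcagagcagCCGCTAGATGGCacccttgct
The match between HOXD13 and HOXD12 lay in a strong peak in 8 libraries and a peak in all 9. The match between HOXA7 and HOXA9 was in a strong peak in 5 libraries, 2 wild type, 2 heterozygous and 1 homozygous, again with a peak in all 9. The HOXA10 match was in a strong peak in 4 libraries, and the HOXB7 match in 1.

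Genotypes were compared region by region, with a region called different when all 3 libraries of one genotype had a strong peak there and none of the other did. Between homozygous and wild type cells 2 of 36 HOX regions were called, against 6.16% of 95310 regions, and both were strong in homozygous libraries, against 2.70% called in that direction. Between heterozygous and wild type cells 1 of 31 HOX regions was called, against 0.897% of 81590, in the heterozygous direction, where 0.393% were called. Between homozygous and heterozygous cells 3 of 37 were called, against 6.57% of 97805: 1 strong in homozygous libraries, against 3.16%, and 2 strong in heterozygous libraries, against 3.41%. With so few HOX regions, these shares are those of 1 to 3 regions and are a description. The 3 comparisons share their libraries. When the other genotype also had to lack a peak of any strength, 0 HOX regions were called in each of the 3 comparisons. The directions and counts moved with the libraries and peaks used. Without wild type replicate 3 and heterozygous replicate 1, 6 of 31 HOX regions were called between homozygous and wild type cells, 3 in each direction, against 12.4% of all regions. Between heterozygous and wild type cells 8 of 28 were called, 6 heterozygous and 2 wild type, against 16.7%; wild type then rests on replicates 1 and 2, which share intervals. With the 100000 strongest peaks homozygous against wild type gave 2 regions in each direction, of 64, against 4.25% of all regions, and with the full lists 2 homozygous and 3 wild type, of 131, against 3.31%.

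The region between HOXC13 and HOXC12, chr12:54342612-54344227, was strong in all 3 homozygous libraries and in none of the other 6. Its percentile was 49.5, 40.6 and 3.41 in homozygous replicates 1, 2 and 3, at ranks 25246, 29715 and 48298. Weaker peaks were listed in wild type replicate 3 and heterozygous replicates 1 and 2, at ranks 155316, 132855 and 109774, and none in the other 3 libraries. The authors' fold enrichment, not scaled between lists, was 5.14, 4.64 and 4.40 in the homozygous libraries and 3.05, 3.19 and 3.39 in the weaker peaks. The middle of the region is 3092 bp from HOXC13 and 5267 bp from the HOXC12 start, with no annotated gene in it, and none of the 5 motifs matched within it. Both of its calls were lost with the 20000 strongest peaks, the full lists or a −log10 q of at least 5.

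The region in HOXB3, chr17:46632517-46633474, was strong in all 6 mutant libraries and in no wild type library. Percentiles were 3.79, 23.2 and 32.04 in heterozygous and 47.9, 11.4 and 19.4 in homozygous libraries. All 3 wild type libraries had a weaker peak, at ranks 70194, 64891 and 53859, the last just outside the 50000. Fold enrichment was 4.02, 4.29 and 4.58 in wild type, 4.78, 5.10 and 5.41 in heterozygous and 5.58, 4.33 and 5.36 in homozygous libraries, so that homozygous replicate 2 lay within the wild type range. These values are not scaled between lists. The 50000th peak had a fold enrichment of 4.06 in homozygous replicate 2 and of 4.68, 4.90 and 4.88 in wild type replicates 1, 2 and 3. The calls were lost with the 20000 or 100000 strongest peaks, the full lists or a −log10 q of at least 5. With an equal number of peaks per chromosome, the call of homozygous against wild type was lost too, with a difference of 66.7 points in the percent of libraries; as given above, chromosome 17 held a higher share of the homozygous strong peaks, and its part in the call was not tested. The site is 887 bp from an internal start of HOXB3, an anterior gene active in blood progenitors.

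Both regions strong in heterozygous but not homozygous libraries lay in HOXA. The region beside HOXA6, chr7:27190317-27191166, 520 bp from the gene start, had percentiles of 33.0, 40.3 and 38.8 in heterozygous libraries and 26.5 in wild type replicate 3. Wild type replicates 1 and 2 and homozygous replicates 2 and 3 had weaker peaks, at ranks 122713, 68493, 107351 and 84266, and homozygous replicate 1 had none. The region at the start of HOXA10, a gene of posterior patterning and myeloid leukaemia, was chr7:27219323-27219832 and held the CTCF match given above. It stood at 54.0, 31.4 and 3.93 in heterozygous libraries and at 47.8 in wild type replicate 3. Weaker peaks were at rank 266855 in wild type replicate 2 and 81738 in homozygous replicate 3. In both regions wild type replicate 3 was strong as the heterozygous libraries were, and it shares intervals with one of them. The calls were the same without these lists, but both were lost with the 20000 or 100000 strongest peaks or the full lists, and that of HOXA10 also with a −log10 q of at least 5.

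No member passed the adjusted threshold in a test of the 3 genotypes over all genes. The number of strong peaks in a gene and within 10 kb was compared by an exact permutation test over the 280 distinct assignments of libraries, with Benjamini-Hochberg adjustment over 18523 genes; the smallest p it can give is 0.00357. Of 35 members with a strong peak 0 had an adjusted p under 0.05, as had 0 of all genes (0%), and 2 had an unadjusted p of 0.05 or less, against 8.05% of all genes. With 1 library left out this count ran from 1 to 7, and without wild type replicate 3 it was 7 of 35 against 11.1% of all genes and without homozygous replicate 3 it was 5 of 35 against 8.91%, so that its place against the background turned. Without wild type replicate 1 or 2, or heterozygous replicate 1, it was 1 of 35. The 2 were HOXC12 and HOXC13, which share the region between them. That region was already called above as strong in homozygous libraries only, so these tests are no separate results. HOXC12 was among the genes tested only because of its strong peaks in homozygous libraries. HOXC12 had 0 strong peaks in all 6 wild type and heterozygous libraries and 2, 2 and 1 in homozygous libraries, and HOXC13 had 1 in each of the 6 and 3, 2 and 2. The groups did not overlap, with an exact permutation p of 0.0357 and an adjusted p of 0.513 for each gene. Without both lists that share intervals across genotypes the exact permutation p was 0.124 for HOXC12 and 0.0286 for HOXC13. With each sharing pair as 1 source and homozygous set against all others it was 0.0286 for both. The full lists gave 0.0857 for HOXC12 and 0.464 for HOXC13, and peaks with a −log10 q of at least 5 gave 1 for both, as did the 20000 strongest peaks for HOXC13.

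The second test took the percentile of the strongest peak of each gene in the full list, with 0 for no peak. Of 38 members 0 passed the adjusted threshold in the exact permutation test (0% of 19951 genes), and 4 had an unadjusted p of 0.05 or less, against 15.2% of all genes. With 1 library left out the count ran from 2 to 7, and without heterozygous replicate 1 it was 7 of 38 against 16.96% of all genes, and without homozygous replicate 3 it was 7 against 15.9%, so that its place against the background turned here too. It was 2 without heterozygous replicate 2, homozygous replicate 1 or homozygous replicate 2. HOXD10, a posterior gene of limb and trunk, stood at 92.7, 94.1 and 89.4 in wild type, 96.4, 97.1 and 98.7 in heterozygous and 81.5, 66.7 and 85.5 in homozygous libraries. All heterozygous values were above, and all homozygous values below, those of wild type, with an exact p of 0.00357, the smallest possible, and an adjusted p of 0.245. With a distance of 20 kb in place of 10 kb the exact p was 0.121. At 10 kb HOXD11 and HOXD12 had the same heterozygous values as HOXD10, but their homozygous and wild type values overlapped. Their exact permutation p was 0.121 and 0.129. In all libraries but wild type replicate 2 and homozygous replicate 2, the strongest peak of HOXD10 was that of its intron site, chr2:176975859-176976632. The order of this site within the strong peaks, where lists are equally long, is therefore another ranking of mostly the same peaks and no separate result. Its percentiles were 67.5, 49.5 and 38.9 in wild type, 81.8, 88.5 and 94.9 in heterozygous, and 32.9 and 7.60 in homozygous replicates 1 and 3, with a weaker peak in homozygous replicate 2.

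HOXC12 stood at 0, 0 and 46.0 in wild type, 47.7, 44.1 and 20.5 in heterozygous and 86.1, 85.015 and 84.9 in homozygous libraries. The homozygous values lay above all others, with an exact permutation p of 0.0107 and an adjusted p of 0.265. In the homozygous libraries the strongest peak of HOXC12 was that of the region between HOXC13 and HOXC12. The percentile is therefore another reading of the region called above and no separate result. HOXB8, which promotes growth of blood progenitors when overactive, stood at 78.2, 84.1 and 66.0, then 66.8, 20.7 and 48.2, then 83.2, 82.0 and 83.8. Homozygous and wild type values overlapped, and the exact permutation p was 0.0464 with an adjusted p of 0.324. HOXD9 stood at 85.5, 94.1 and 87.2, then 87.2, 83.7 and 74.4, then 55.3, 66.7 and 77.5, with the same p and adjusted p by the exact permutation test, and its homozygous and heterozygous values overlapped. Without the lists that share intervals across genotypes the exact permutation p was 0.0571 for HOXD10, 0.00952 for HOXC12, 0.0667 for HOXB8 and 0.143 for HOXD9. With each sharing pair as 1 source and homozygous set against all others it was 0.0286 for HOXD10 and HOXC12, 0.0571 for HOXB8 and 0.0857 for HOXD9. HOXC12 gave an exact p of 0.625 at 20 kb and of 1 with the gene body alone or a −log10 q of at least 5. With the gene body alone the exact p was 0.25 for HOXB8 and 0.325 for HOXD9, and with an equal number of peaks per chromosome it was 0.357 for HOXB8. The 50000th peak of a library was at a full-list percentile between 72.4 and 84.4, since the lists differ in length.

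Members of a cluster were compared in the percentile of their strongest peak over the 9 libraries, by the mean absolute difference to the member with the highest mean. HOXD8 differed from HOXD3 by 0.199 percentile points, then HOXD11 by 5.90 and HOXD10 by 6.07. HOXC6 differed from HOXC13 by 3.90, HOXC9 by 5.14 and HOXC10 by 5.61. HOXB7 and HOXB9 differed from HOXB1 by 4.93 each and HOXB3 by 8.04, and HOXA4, HOXA5 and HOXA6 differed from HOXA3 by 4.96 each. These are descriptions over 9 libraries, and members with equal values share a peak. HOXD8 and HOXD3 had the same value in every library but heterozygous replicate 2 and homozygous replicate 1, because both windows hold the HOXD3 intron site.

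The starts of genes that act with or upon HOX genes, or lie beside them, are given for comparison. Of 9 cofactor genes of the PBX, MEIS and PKNOX families, 5 had a strong peak at the start in all 9 libraries, as had 8 of 17 regulators, and 5 of 10 neighbours of the clusters. Over all protein-coding genes the share was 41.1%. By the exact permutation test on the number of strong peaks, 0 genes in these 3 lists had an adjusted p under 0.05. An unadjusted p of 0.05 or less was found for 1 of 9 cofactors, PBX2, 1 of 16 regulators tested, EZH2, and 2 of 8 neighbours tested, MTX2 and LNPK. Over all 18523 genes tested the share was 8.05%, and counts this small are a description. EZH2, the methyltransferase of a Polycomb complex, had 3, 4 and 3 strong peaks in wild type, 3, 3 and 4 in heterozygous and 2, 1 and 2 in homozygous libraries, and the homozygous values lay below all others (exact permutation p = 0.0357, adjusted p = 0.513). MTX2, the gene next to HOXD on the side of HOXD1, had 3, 2 and 2, then 5, 4 and 3, then 1, 1 and 2, with overlapping genotypes, an exact permutation p of 0.0214 and an adjusted p of 0.513.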

How the data were processed

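ATAC-seq libraries were made from 50000 cells per replicate and sequenced as single-end reads of 100 bp, per the labels. Per the submitters' processing notes, which name cutadapt, Bowtie2 2.2.9, Picard, MACS2 2.1.0 and the build hg19/GRCh37, the authors deposited 1 peak list per library; parameters are not given in the sources used here. The lists hold the authors' deposited fold enrichment and −log10 p and q per peak. Ranks and percentiles were taken within a list. Fold enrichment was set side by side for 2 regions without scaling, and an alternative applied a −log10 q threshold of 5 to all lists. In the deposited lists most intervals are 500 bp long, and the 17.2% to 19.2% longer than 500 bp join overlapping windows. Genes and lengths are those of GENCODE release 44 on GRCh37; no interval passed a chromosome end (0). The 50000 highest −log10 p of each library on chromosomes 1 to 22 and X were kept as strong and merged over libraries where they overlapped by 1 bp or more. Among peaks tied at the cut, chromosome name and position decided which were kept. The region beside HOXA2 in wild type replicate 3 had the values of the 50000th peak, −log10 p 6.41 and fold enrichment 4.88, but stood at rank 51255. The region chr17:46679837-46680342 was strong in wild type replicates 1 and 2 at exactly the values of the cut. Alternatives changed the number of peaks kept, the threshold, the distance, the overlap, the library set and the replicate block, or counted covered bases in place of peaks. A pair of genotypes alone could not give an exact p below 0.1. The summit alternative took the base 250 bp inside either end of an interval, because the deposited offsets do not count from the interval start. Members and lists were chosen with earlier results of these data known. Named were the constitutive regions, the regions that differ, every member with an unadjusted exact p of 0.05 or less, the longest stretches without a strong peak, and the 3 members most like the most open one of a cluster. Other members were named after their values were seen. Python 3.11.15, numpy 2.4.6, pandas 2.3.3, pysam 0.24.0 and matplotlib 3.10.9 were used, and the gene test was checked on simulated data.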

Additional observations from a re-analysis of the deposited data

How the results depend on the processing

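The counts of HOX regions called moved with the number of peaks taken as strong. Against 2, 1 and 3 regions called for homozygous against wild type, heterozygous against wild type and homozygous against heterozygous, the 20000 strongest peaks gave 0, 0 and 1, where 6.35%, 1.16% and 6.53% of all regions were called. The 100000 strongest gave 4, 1 and 6 (4.25%, 0.673% and 4.17%), and the 1 region of heterozygous against wild type was then strong in wild type. The full lists gave 5, 0 and 5 (3.31%, 1.01% and 2.75%). Peaks with a −log10 q of at least 5 gave 1, strong in wild type, and 0 for both comparisons with wild type (6.71% and 1.03%). For homozygous against wild type, an equal number of peaks per chromosome gave 1 and the gene body alone gave 1. Lists that share intervals were also counted as 1 source, strong where either list was. For homozygous against wild type, wild type replicate 3 joined with heterozygous replicate 1 then stood as a wild type source, heterozygous peaks included. For heterozygous against wild type that source was left out, so that wild type was 1 source, replicates 1 and 2 joined. These 2 comparisons gave 4 (1 homozygous, 3 wild type) and 9 (6 heterozygous, 3 wild type) regions, where 8.11% and 24.0% of all regions were called. Leaving out wild type replicate 3 and heterozygous replicate 1 together, a choice made after the data were seen, gave 6 and 8 (12.4% and 16.7%). When no peak of any strength was allowed in the other genotype, each comparison gave 0 (0.578%, 0.00123% and 0.933%). Leaving out 1 library at a time gave 2 to 6, 1 to 6 and 3 to 6 regions, with the high values without wild type replicate 3 in both comparisons with wild type and without heterozygous replicate 3 in the third; without homozygous replicate 3 homozygous against wild type gave 4, and without heterozygous replicate 1 heterozygous against wild type gave 2. With fewer libraries a region needs fewer strong peaks to be called; for the other settings the cause was not tested.

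The homozygous minus wild type difference in strong peaks ranged, with 1 library left out, from −14.3% to 200% in HOXA, 25% to 75% in HOXB, 26.9% to 61.5% in HOXC and −42.2% to −25% in HOXD. It was 200% in HOXA without wild type replicate 3 and heterozygous replicate 1 together, and −7.69% in HOXB with an equal number of peaks per chromosome. With covered bases in place of peaks it was 68.5% in HOXA, 52.6% in HOXB, 60.1% in HOXC and −29.6% in HOXD. Strong peaks covered 3.32% to 3.81% of HOXC in homozygous libraries. The highest values were 2.82% in wild type and 2.81% in heterozygous libraries. How often other stretches of the genome separate in this way was not counted.

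Both gene tests gave 0 members with an adjusted p under 0.05 under every alternative run, the replicate block included, where replicate numbers shared across genotypes were permuted within numbers. The numbers share no stated origin, and same-numbered libraries deviated with correlations from −0.245 to 0.123, 1 of 9 above 0.1. With the replicate block the exact p was 0.111 for the number of strong peaks of HOXC12 and of HOXC13, and 0.0556 for HOXB8, 0.0556 for HOXC12, 0.167 for HOXD9 and 0.0278 for HOXD10 in the percentile test. No read depth is known, so a site that is not listed cannot be told from one that was sampled too thinly.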
